A study of Mus musculus with 15 samples.

Results

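B cells and the plasma cells that arise from them were followed through 9 genes in colon tissue of mice with chemically induced colitis and polyps. The genes were selected by name: probes carrying one of the 9 symbols, after old symbols were updated through the accession on the array, were taken as members. They comprised 3 B cell genes (Ms4a1, Cd79a and Cd79b), 2 genes shared by B and plasma cells (Pou2af1 and Irf4), 2 plasma cell genes (Mzb1 and Jchain) and 2 plasma cell genes that colon epithelium also expresses (Sdc1 and Xbp1). All 9 were measured, by 11 probes, and all 9 passed the filter on dim probes, among 21301 genes tested.

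The samples came from 8 female Swiss Webster mice. All of them, in every group, received azoxymethane (AOM, a colon carcinogen) at 7.4 mg/kg by intraperitoneal injection and 3 cycles of 4% dextran sulfate sodium (DSS, which injures the colon lining). Each cycle paired 7 days of DSS with 21 days of water. Mice entered at 7 weeks of age, began DSS at 9 weeks and were killed at 18 weeks. The groups were polypoid tissue of mice dosed at 75 mg/kg with 5-ASA (5-aminosalicylic acid, a drug for ulcerative colitis), polypoid tissue of untreated mice, inflamed tissue of 5-ASA mice and inflamed tissue of untreated mice, with 2 mice in each. The sample labels give the untreated mice no treatment, and the design text names a vehicle. No healthy colon and no colon without AOM and DSS were analysed here, so no level below is relative to normal tissue.

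Tissue areas were cut from frozen sections by laser capture, and their RNA passed through 2 rounds of amplification before hybridisation to two-colour arrays beside a universal mouse reference RNA. A level below is log2 of sample over reference for 1 mouse, so 0 means equal to the reference RNA. Levels of different probes were not compared with each other. In such bulk captures, fewer B or plasma cells and less RNA per cell cannot be told apart.

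B cells carry the B cell receptor, whose membrane immunoglobulin signals through the paired chains CD79A and CD79B. On activation they can become plasma cells, which shut down much of the B cell programme, enlarge the endoplasmic reticulum and secrete antibody. In the gut most of that antibody is dimeric IgA joined by the J chain and carried across the epithelium by the polymeric immunoglobulin receptor. Colonic B cells lie largely in lymphoid follicles, and plasma cells lie scattered in the lamina propria between the crypts.

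The promoters of 6 of the 9 genes were in the RefSeq table used here (GRCm38.p6): Cd79a, Pou2af1, Irf4, Jchain, Sdc1 and Xbp1. The 250 bases before the annotated start, read 5′ to 3′ on the gene's own strand, are shown for the 3 genes whose contrast between tissues is described most fully below. Capitals mark TGACGTGG, the core of an element that XBP1 is known to bind.
Pou2af1, chr9:51213440-51213689, plus strand: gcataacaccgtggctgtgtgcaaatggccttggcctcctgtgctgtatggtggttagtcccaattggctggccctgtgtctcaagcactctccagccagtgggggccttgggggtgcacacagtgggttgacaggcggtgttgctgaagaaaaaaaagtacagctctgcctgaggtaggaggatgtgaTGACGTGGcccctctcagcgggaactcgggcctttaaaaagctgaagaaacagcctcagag
Jchain, chr5:88527898-88528147, minus strand: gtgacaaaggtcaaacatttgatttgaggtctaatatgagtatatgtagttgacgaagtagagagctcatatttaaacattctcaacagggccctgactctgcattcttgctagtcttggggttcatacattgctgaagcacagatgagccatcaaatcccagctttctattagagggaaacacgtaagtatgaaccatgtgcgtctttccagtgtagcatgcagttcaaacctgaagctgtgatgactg
Sdc1, chr12:8771146-8771395, plus strand: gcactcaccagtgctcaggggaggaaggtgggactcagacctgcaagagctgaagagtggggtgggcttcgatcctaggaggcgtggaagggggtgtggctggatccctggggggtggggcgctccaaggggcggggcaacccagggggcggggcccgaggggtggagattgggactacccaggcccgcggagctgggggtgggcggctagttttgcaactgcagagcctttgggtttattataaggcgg

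The element stood 61 to 54 bases before the Pou2af1 start, and 0.563% of 32851 RefSeq promoters of the same length hold it on either strand. The Jchain and Sdc1 windows differed in base composition, with a GC content of 42% in Jchain and 66% in Sdc1. None of the 6 windows held the octamer ATGCAAAT, which 1.6% of promoters held. Both patterns were searched on both strands, and they did not overlap each other in these windows. A match in these letters is a description of the window and not a measured binding site.

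Across the series, the 15 arrays had median sample intensities of 148.6 to 257.2 against local backgrounds of 41 to 63, and 57.4% to 90.9% of probes were well above background. The 11 epithelial markers averaged 2.55 to 3.39 in all 8 mice, so epithelium was present in every capture. The arrays were scanned in 4 sessions. Replicate 1 of untreated and 5-ASA inflamed tissue shared session 1, replicate 1 of both polypoid groups shared session 2, both polypoid replicates 2 and untreated inflamed replicate 2 shared session 3, and 5-ASA inflamed replicate 2 stood alone in session 4 on a single Cy3 array. Over all genes, untreated polypoid replicate 1 correlated more closely with 5-ASA polypoid replicate 1 (r = 0.902) than with its own group mate (r = 0.873). Untreated inflamed replicate 1 likewise correlated more closely with 5-ASA inflamed replicate 1 (r = 0.948) than with its group mate (r = 0.872). Tissue and session overlap in large part, and only session 3 holds both tissues, so session 3 values are given beside most of the contrasts between tissues.

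In polypoid tissue the plasma cell gene Mzb1 fell and the syndecan gene Sdc1 rose relative to inflamed tissue, with both treatment arms combined. Of the 9 genes, 7 had lower mean levels in polypoid tissue. The contrasts of Pou2af1 and Jchain did not pass the threshold, and those of the B cell genes Ms4a1 and Cd79b varied widely between mice. The plot of levels by mouse shows all 9 genes.

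**Figure D1:**
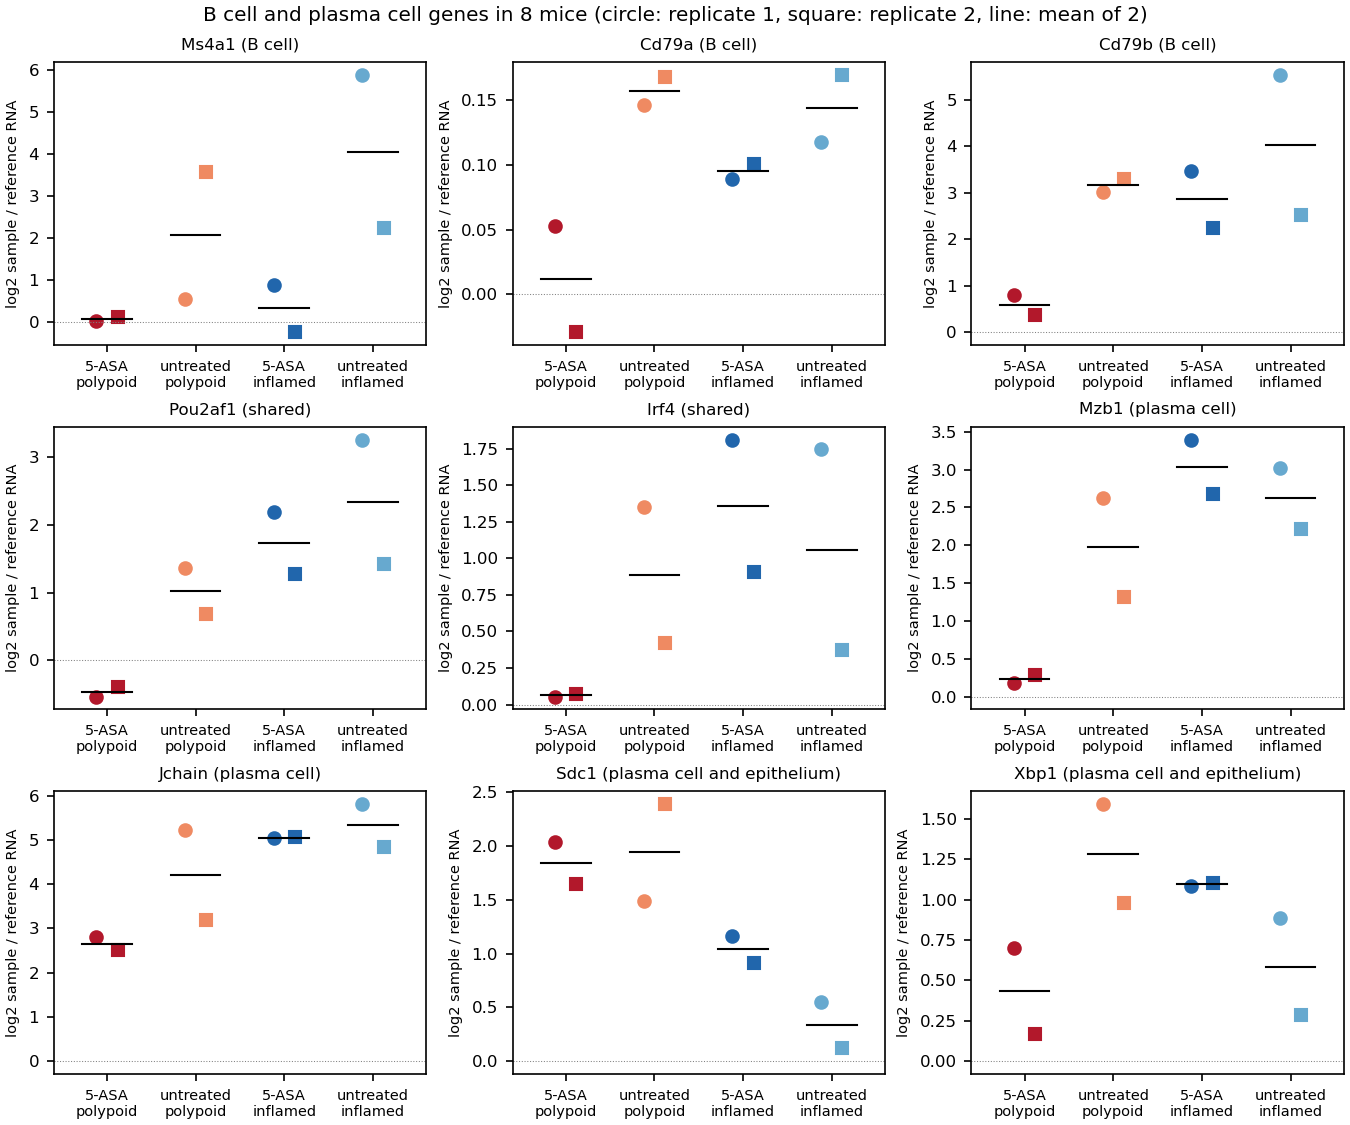
Level of each gene in 8 mice as log2 of sample over reference RNA on the vertical axis, by group on the horizontal axis; circles are replicate 1, squares replicate 2 and lines the mean of the 2 mice. Both 5-ASA polypoid mice lie lowest for Cd79b (0.79 and 0.36) and Pou2af1 (-0.54 and -0.39), and the vertical scale differs between panels.

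Mzb1 encodes an endoplasmic reticulum chaperone of B and plasma cells that assists antibody assembly. Its levels were 0.18 and 0.28 in 5-ASA polypoid tissue, 2.62 and 1.32 in untreated polypoid tissue, 3.40 and 2.68 in 5-ASA inflamed tissue and 3.02 and 2.22 in untreated inflamed tissue. Both 5-ASA polypoid mice were far below the rest, while untreated polypoid replicate 1 lay within the range of the inflamed mice. The array carries this probe on 10 spots, whose SD within an array was 0.0441 to 0.168. Polypoid tissue averaged 1.1 ± 1.14 and inflamed tissue 2.83 ± 0.50 (SD, n = 4 each), a log2 difference of -1.73 ± 0.351 (SE), or 3.31-fold lower (limma, Benjamini-Hochberg adjusted p = 0.045). The call held in 1 of 8 fits that each left out 1 mouse, the one without untreated polypoid replicate 1 (adjusted p = 0.023). It was lost without any of the other 7 (limma adjusted p = 0.067 to 0.17), with a difference of -2.05 to -1.40 throughout.

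Sdc1 encodes syndecan-1 (CD138), a surface proteoglycan used as a plasma cell marker that colon epithelial cells also carry. Its levels were 2.04 and 1.65 in 5-ASA polypoid tissue, 1.49 and 2.39 in untreated polypoid tissue, 1.16 and 0.92 in 5-ASA inflamed tissue and 0.55 and 0.12 in untreated inflamed tissue. All 4 polypoid mice were above all 4 inflamed mice. The log2 difference was 1.2 ± 0.235, or 2.3-fold higher (limma adjusted p = 0.041). This call too held in 1 of 8 fits without a mouse, the one without untreated polypoid replicate 1 (adjusted p = 0.021), and gave limma adjusted p = 0.059 to 0.14 in the other 7. Sdc1 thus changed in the opposite direction to Mzb1. The 11 epithelial markers had a median tissue difference of -0.29, with 1 called lower (limma), where 1.97% of all genes were. In 5-ASA mice their median was -0.58 with 1 called lower, where 1.02% of all genes were. In untreated mice it was -0.09 with 0 called, where 0.164% of all genes were. Their average level in untreated mice was 3.16 and 3.26 in polypoid tissue, against 3.19 and 3.03 in inflamed tissue. Their part in the Sdc1 difference was not tested.

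Over all genes, 5.94% passed the threshold in this contrast, 3.97% higher and 1.97% lower in polypoid tissue. Of the 9 genes, 1 passed in each direction, and with so few genes these counts describe the genes without setting them apart. The ranges of the tissues did not overlap for 1 of 9 genes (Sdc1, higher), where 8.37% of all genes lay wholly higher and 7.91% wholly lower. The median difference of the 9 genes was -1.12, beside -0.0155 over all genes. Only session 3 compares the tissues within 1 session, in untreated mice, and there the difference of a single pair of mice was -0.903 for Mzb1 and 2.27 for Sdc1. With session as a block the Mzb1 difference was -1.61 (limma adjusted p = 0.38) and that of Sdc1 was 1.59 (adjusted p = 0.37), with 1 residual degree of freedom.

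Jchain encodes the joining chain of dimeric IgA and pentameric IgM. By its brighter probe its levels were 2.80 and 2.51 in 5-ASA polypoid tissue, 5.22 and 3.19 in untreated polypoid tissue, 5.03 and 5.07 in 5-ASA inflamed tissue and 5.81 and 4.85 in untreated inflamed tissue. This probe was saturated on 3 arrays, 1 of untreated polypoid replicate 1 and both of 5-ASA inflamed replicate 1, so those levels are held down by the scanner's ceiling. The other probe was saturated on no array and gave 2.43 and 3.05, 7.30 and 3.45, 7.89 and 6.94, and 7.37 and 7.15 in the same order of groups. By both probes 3 polypoid mice lay below every inflamed mouse, and untreated polypoid replicate 1 lay among them. The log2 difference was -1.76 ± 0.465 by the brighter probe (limma adjusted p = 0.086) and -3.28 ± 0.812 by the other, a 9.7-fold lower mean in polypoid tissue (limma over probes, adjusted p = 0.08). Neither passed the threshold. In session 3 the untreated polypoid mouse differed from the untreated inflamed one by -1.66 by the brighter probe and -3.7 by the other, and with session as a block the brighter probe gave -1.61.

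**Figure D2:**
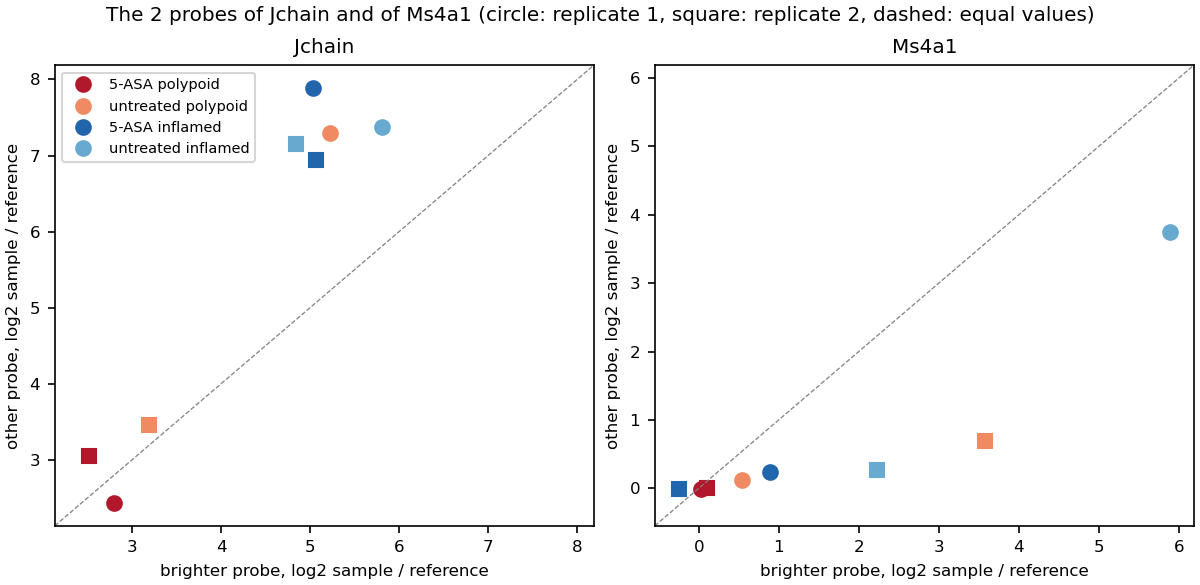
The 2 probes of Jchain (left) and of Ms4a1 (right), each point 1 mouse, both axes log2 of sample over reference RNA, with a dashed line where values are equal. For Jchain the less bright probe spreads wider (2.43 to 7.89) than the brighter one (2.51 to 5.81); for Ms4a1 untreated polypoid replicate 2 is high by the brighter probe (3.58) and low by the other (0.69).

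Pou2af1 encodes OCA-B, a coactivator that B and plasma cells use with octamer-binding factors at immunoglobulin promoters. Its levels were -0.54 and -0.39 in 5-ASA polypoid tissue, 1.37 and 0.69 in untreated polypoid tissue, 2.19 and 1.27 in 5-ASA inflamed tissue and 3.26 and 1.43 in untreated inflamed tissue. Only the 5-ASA polypoid mice were below the reference RNA, and untreated polypoid replicate 1 (1.37) lay above 5-ASA inflamed replicate 2 (1.27). The log2 difference between tissues was -1.76 ± 0.445 (limma adjusted p = 0.078), which did not pass. The session 3 pair differed by -0.739, and with session as a block the difference was -0.744 (limma adjusted p = 0.46). Irf4, a transcription factor required for plasma cell formation and also used by activated B and T cells, had levels of 0.05 and 0.07, 1.35 and 0.42, 1.81 and 0.90, and 1.75 and 0.37 in the same order of groups. Its difference of -0.74 ± 0.39 had an adjusted p of 0.33 (limma), and the session 3 pair differed by 0.0511. Irf4 was dim, with sample signals of 45.9 to 324, and its reference channel was well above background on 10 of 15 arrays.

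Cd79b encodes one of the paired signalling chains of the B cell receptor. Its levels were 0.79 and 0.36 in 5-ASA polypoid tissue, 3.02 and 3.31 in untreated polypoid tissue, 3.47 and 2.24 in 5-ASA inflamed tissue and 5.53 and 2.52 in untreated inflamed tissue. Untreated inflamed replicate 1 was highest, and the other inflamed mice spanned the untreated polypoid levels. The tissue difference was -1.57 ± 0.67 (limma adjusted p = 0.23). Within session 3 the untreated polypoid mouse was 0.787 above the untreated inflamed one, and with session as a block the sign turned, to 0.347.

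Ms4a1 encodes CD20, a surface protein of B cells that plasma cells lack. By its brighter probe its levels were 0.03 and 0.11 in 5-ASA polypoid tissue, 0.54 and 3.58 in untreated polypoid tissue, 0.88 and -0.25 in 5-ASA inflamed tissue and 5.89 and 2.23 in untreated inflamed tissue. The 3 high mice were all untreated, and both tissues were represented. The other probe gave -0.02 and 0.00, 0.12 and 0.69, 0.24 and -0.01, and 3.75 and 0.27 in the same order, so by that probe only untreated inflamed replicate 1 was clearly high. The tissue difference was -1.13 ± 0.991 by the brighter probe (limma adjusted p = 0.56), and in session 3 the untreated polypoid mouse was higher by 1.35. Both probes were well above background in the sample channel on 14 of 15 arrays, the exception being the single array of 5-ASA inflamed replicate 2.

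Cd79a, the partner of Cd79b in the receptor, showed no such spread. Its 8 levels lay between -0.03 and 0.17, a range of 0.199, while dye-swapped arrays of 1 mouse differed by up to 0.219. The tissue difference was -0.03 with a 95% interval of -0.236 to 0.166 (limma adjusted p = 0.84). Its sample signal was dim, at 62.8 to 145, though well above background on all 15 arrays. Where Cd79a is counted below as wholly lower in a group, the gap is smaller than that dye-swap difference. Xbp1, a transcription factor of the unfolded protein response needed for antibody secretion by plasma cells and also active in secretory epithelium, differed by 0.02 ± 0.219 (limma adjusted p = 0.97).

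In untreated mice alone none of the 9 genes passed, where 0.164% of all genes did. Sdc1 was higher in polypoid tissue by 1.61 ± 0.333 (limma adjusted p = 0.16), Pou2af1 had a log2 difference of -1.32 (adjusted p = 0.46), and Mzb1 differed by -0.65 (adjusted p = 0.62). The Pou2af1 value rested on which untreated inflamed mouse was kept: it was -0.40 when replicate 1 was left out and -2.23 when replicate 2 was. Sdc1 and Xbp1 lay wholly higher in untreated polypoid than in untreated inflamed tissue (19.4% of all genes did) and Pou2af1 wholly lower (22.4%).

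In 5-ASA mice Mzb1 fell in polypoid tissue, with a log2 difference of -2.81 ± 0.496 from inflamed tissue, or 7-fold lower (limma adjusted p = 0.045), where 3.06% of all genes passed, 1.02% lower. This call held in 2 of 8 fits that left out 1 mouse, those without an untreated polypoid mouse, and was lost in the other 6 (limma adjusted p = 0.061 to 0.27). Fitted over probes rather than genes, its adjusted p was 0.05 and it was not called. Jchain differed by -2.39 ± 0.658 (adjusted p = 0.12) by the probe saturated on both arrays of 5-ASA inflamed replicate 1, and by -4.67 ± 1.15 by the unsaturated probe (limma over probes, adjusted p = 0.1). Pou2af1 differed by -2.19 ± 0.629 (adjusted p = 0.13) and Cd79b by -2.28 ± 0.948 (adjusted p = 0.27), and none of these passed limma's test. Of the 9 genes, 7 lay wholly lower in polypoid tissue, where 28.4% of all genes did, and Sdc1 lay wholly higher, where 26.7% did. The 7 were Cd79a, Cd79b, Pou2af1, Irf4, Mzb1, Jchain and Xbp1. No scan session holds both tissues of 5-ASA mice, so tissue and session cannot be told apart in this arm.

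**Figure D3:**
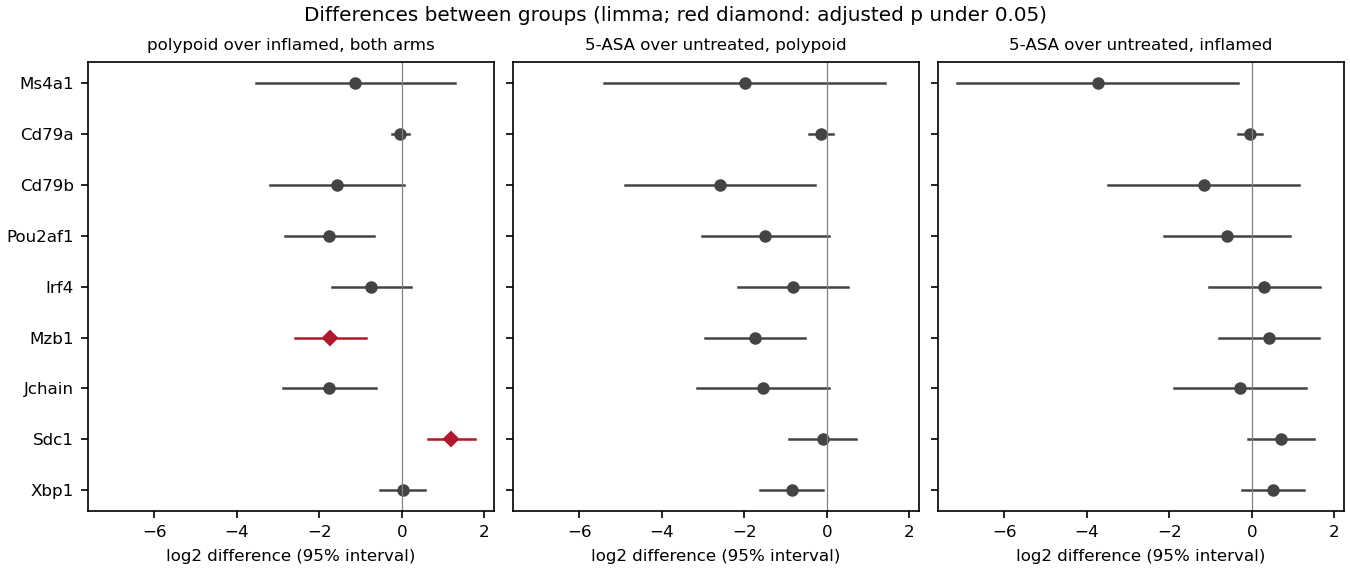
Log2 differences of the 9 genes with 95% intervals from limma, for polypoid over inflamed tissue in both arms (left), 5-ASA over untreated in polypoid tissue (middle) and in inflamed tissue (right). Red diamonds mark the 2 genes with an adjusted p under the threshold, Mzb1 (-1.73) and Sdc1 (1.2), both in the left panel; no interval in the other panels belongs to a called gene.

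Treatment was examined as 5-ASA over untreated within each tissue. No gene of the 21301 passed in either tissue or in both together. In polypoid tissue 1655 genes (7.77%) had an unadjusted p under 0.05, in inflamed tissue 934 (4.38%) and over both tissues 1361 (6.39%). The smallest limma adjusted p over all genes was 0.41 in polypoid tissue, 0.975 in inflamed tissue and 0.765 over both.

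In polypoid tissue all 9 genes had a lower mean in 5-ASA mice, with a median difference of -1.49 beside 0.0093 over all genes. For 8 of the 9, all but Sdc1, both 5-ASA mice lay below both untreated mice, where 19.2% of all genes did. Among the probes that stood for each gene, Cd79b had the largest difference, -2.59 ± 0.948 or 6-fold lower in 5-ASA mice (95% interval -4.89 to -0.278, limma adjusted p = 0.61), and Mzb1 differed by -1.74 ± 0.496 (adjusted p = 0.59). The other differences were -1.99 for Ms4a1, -1.55 for Jchain, -1.49 for Pou2af1, -0.85 for Xbp1, -0.82 for Irf4, -0.14 for Cd79a and -0.10 for Sdc1 (limma adjusted p = 0.61 to 0.99). The less bright Jchain probe, which was not saturated, gave -2.63 ± 1.15 (limma over probes, adjusted p = 0.67). Sessions 2 and 3 each hold 1 mouse of both arms. For the 8 genes without overlap between the arms, the 5-ASA mouse was bound to be lower in each session, so only the sizes are given. They were -2.23 and -2.94 for Cd79b, -1.90 and -1.08 for Pou2af1, -2.44 and -1.04 for Mzb1 and -2.42 and -0.671 for Jchain. For Ms4a1 they were -0.508 and -3.47, for Irf4 -1.29 and -0.35, for Xbp1 -0.892 and -0.814 and for Cd79a -0.093 and -0.197. Sdc1, whose arms overlapped, differed by 0.547 and -0.741.

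Some other marker lists also had lower averages in these samples. Of these, pan-leukocyte markers mark B cells too, and the follicle list shares Cr2 with the list of further B cell genes below. In polypoid tissue all 11 epithelial markers had lower means in 5-ASA mice, their average level being 2.55 to 2.81, against 3.16 to 3.26 in untreated mice. The 8 pan-leukocyte markers averaged -0.556 to -0.196 in 5-ASA polypoid tissue, against -0.083 to 0.090 in untreated polypoid tissue, and 7 of 8 had lower means. The 6 lymphoid follicle markers averaged 0.711 to 0.805 in 5-ASA polypoid tissue, against 1.15 to 1.68 in untreated polypoid tissue, and 5 of 6 had lower means. Averages of the 5-ASA and untreated mice overlapped for T cell, macrophage and dendritic cell, smooth muscle and fibroblast markers. Lower means were found for 8 of 9, 6 of 11, 6 of 8 and 4 of 6 of these, in that order. No marker of these lists was called, and their part in the differences of the 9 genes was not tested.

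In inflamed tissue 5 of the 9 genes had lower and 4 had higher means in 5-ASA mice. Ms4a1 had the largest difference, -3.74 ± 1.4 or 13.4-fold lower in 5-ASA mice (95% interval -7.15 to -0.329, limma adjusted p = 0.98). The single array of 5-ASA inflamed replicate 2 was not well above background for this probe. The less bright probe gave -1.89 ± 1.01 (limma over probes, adjusted p = 0.99). Cd79b differed by -1.17, Pou2af1 by -0.61 and Jchain by -0.28, while Mzb1 (0.42), Irf4 (0.30), Xbp1 (0.51) and Sdc1 (0.70) had higher means in 5-ASA mice. None passed limma's test (adjusted p = 0.98 to 0.99). Ms4a1 and Cd79a lay wholly lower in 5-ASA mice, where 14.5% of all genes did, and Sdc1 and Xbp1 wholly higher, where 14.9% did. Without untreated inflamed replicate 1 the Ms4a1 difference was -1.91, and several signs turned: Cd79b differed by 0.337, Pou2af1 by 0.305 and Jchain by 0.204.

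Untreated inflamed replicate 1 also had the highest smooth muscle, leukocyte and follicle marker levels. The 8 smooth muscle markers averaged 1.35 to 1.79 in 5-ASA inflamed tissue, against 2.40 to 3.52 in untreated inflamed tissue, and the 6 follicle markers 0.661 to 0.817 in 5-ASA inflamed tissue, against 0.859 to 2.14 in untreated inflamed tissue. Between tissues too, smooth muscle markers were lower in polypoid captures (0.573 to 1.17) than in inflamed captures (1.35 to 3.52), with 4 of 8 called lower, where 1.97% of all genes were. Their part in the levels of the 9 genes was not tested.

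The difference of the 5-ASA effect between tissues was tested directly. No gene passed, and 5.98% of all genes had an unadjusted p under 0.05. For Mzb1 the effect in polypoid minus that in inflamed tissue was -2.16 ± 0.701 (limma adjusted p = 0.8), and for Xbp1 it was -1.36 ± 0.439 (limma adjusted p = 0.8). Xbp1 levels were 0.70 and 0.17 in 5-ASA polypoid tissue, 1.59 and 0.98 in untreated polypoid tissue, 1.09 and 1.11 in 5-ASA inflamed tissue and 0.89 and 0.28 in untreated inflamed tissue. Both 5-ASA mice were thus below both untreated mice in polypoid tissue and above both in inflamed tissue.

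Other genes of the same cells were taken from lists. Of 17 further B cell genes measured, none passed in the contrast between tissues, 15 had lower means in polypoid tissue, and the median difference was -0.48. The sign of this median turned in the session 3 pair (0.24) and with session as a block (0.654). Fcrla, an Fc receptor-like protein of B cells, differed by -0.55 ± 0.195 (limma adjusted p = 0.16), Fcrl1 by -0.99 ± 0.472 (adjusted p = 0.28) and the complement receptor gene Cr2 by -0.20 ± 0.101 (adjusted p = 0.29). Under 5-ASA in inflamed tissue all 17 had lower means and 11 lay wholly lower, where 14.5% of all genes did, with a median of -0.80 beside -0.0147 over all genes and no call. Their average was 1.98 in untreated inflamed replicate 1, against 0.677 in its group mate. Fcrl1 levels were 0.88 and 0.64 in 5-ASA inflamed tissue, against 3.77 and 1.76 in untreated inflamed tissue. Its sample signal was well above background on 11 of 15 arrays. A gene can pass the filter on dim probes through 1 group where it is high, so these counts of lower genes may owe part to that filter.

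Of 17 further plasma cell genes, 1 (Itgb7) fell in polypoid tissue, where 1.97% of all genes did, 13 had lower means and the median was -0.20. Itgb7, the integrin chain with which gut-homing lymphocytes bind MAdCAM-1 and which T cells also carry, had levels of 0.22 and 0.14 in 5-ASA polypoid tissue, 0.99 and 0.65 in untreated polypoid tissue, 1.94 and 1.26 in 5-ASA inflamed tissue and 2.45 and 1.82 in untreated inflamed tissue. All polypoid mice were below all inflamed mice, by a log2 difference of -1.37 ± 0.216 (limma adjusted p = 0.024). The call was lost in 4 of 8 fits that left out 1 mouse: without either 5-ASA polypoid mouse, untreated polypoid replicate 2 or 5-ASA inflamed replicate 1 (adjusted p = 0.064 to 0.089). It was also lost with session as a block (-1.17, limma adjusted p = 0.33), and the session 3 pair differed by -1.17. Tnfrsf17, which encodes the plasma cell survival receptor BCMA, differed by -1.70 ± 0.562 (limma adjusted p = 0.14) and Slamf7 by -0.33 ± 0.108 (adjusted p = 0.14).

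The 7 immunoglobulin genes measured all had lower means in polypoid tissue with both arms combined, with a median of -1.52 and no call. By arm, the median was -0.25 in untreated mice, with 3 higher and 4 lower, and -1.56 in 5-ASA mice, with all 7 lower. In 5-ASA mice Igh-VJ558, a heavy chain variable segment family, fell in polypoid tissue. Its levels were 0.25 and -0.11 in 5-ASA polypoid tissue, against 3.38 and 2.99 in 5-ASA inflamed tissue, a log2 difference of -3.12 ± 0.558 (limma adjusted p = 0.046). The call was lost in 6 of 8 fits that left out 1 mouse (adjusted p = 0.061 to 0.28) and held without either untreated polypoid mouse. It was also lost in the authors' deposited value table (adjusted p = 0.14), without the filter on dim probes (0.06), with the mean over its probes (-2.42, adjusted p = 0.097) and with session as a block (0.43), all by limma. With both arms combined Iglv1 differed by -2.60 ± 0.648 (limma adjusted p = 0.075) and Ighm by -1.52 ± 0.428 (adjusted p = 0.098). Under 5-ASA in polypoid tissue Igh-VJ558 differed by -2.23 ± 0.558 (adjusted p = 0.55) and Iglv1 by -2.84 ± 0.916 (adjusted p = 0.61). Without untreated polypoid replicate 1 these were -1.42 and -1.54. Within sessions 2 and 3 the differences were -2.86 and -1.60 for Igh-VJ558, and -4.89 and -0.788 for Iglv1. By array name 38 immunoglobulin probes were kept, of which 37 had lower means in polypoid tissue. With 5-ASA, 37 had lower means in polypoid tissue and 13 in inflamed tissue. For some, the lower mean with 5-ASA in polypoid tissue rested on untreated polypoid replicate 1 alone. An Iglv1 probe other than that above had 3.8 and 0.338 in untreated polypoid tissue, against 0.417 and 0.397 in 5-ASA polypoid tissue. Another had 3.49 and 0.442, against 0.504 and 0.53. For an Ighg probe both untreated polypoid mice were higher (4.06 and 2.4, against 0.356 and 0.43). Between tissues 1 of the 38, that Ighg probe, was called lower (-2.55 ± 0.501, limma over probes, adjusted p = 0.046). In the fit over genes 1.97% of all genes were called lower, and the share over all probes is not given here. Only 1 probe of the 38, an Igh-1a probe, had a higher mean in polypoid tissue (1.05 ± 0.242, limma over probes, adjusted p = 0.068). That Igh-1a probe had levels of 1.41 and 2.54 in 5-ASA polypoid tissue, against 0.09 and 0.08 in untreated polypoid tissue, while the other Igh-1a probe had 0.04 and -0.03 in 5-ASA polypoid tissue, against 2.76 and 0.61 in untreated polypoid tissue. These probes were singled out after their values were seen. Related immunoglobulin genes can share sequence, so these probes may not measure independent genes.

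**Figure D4:**
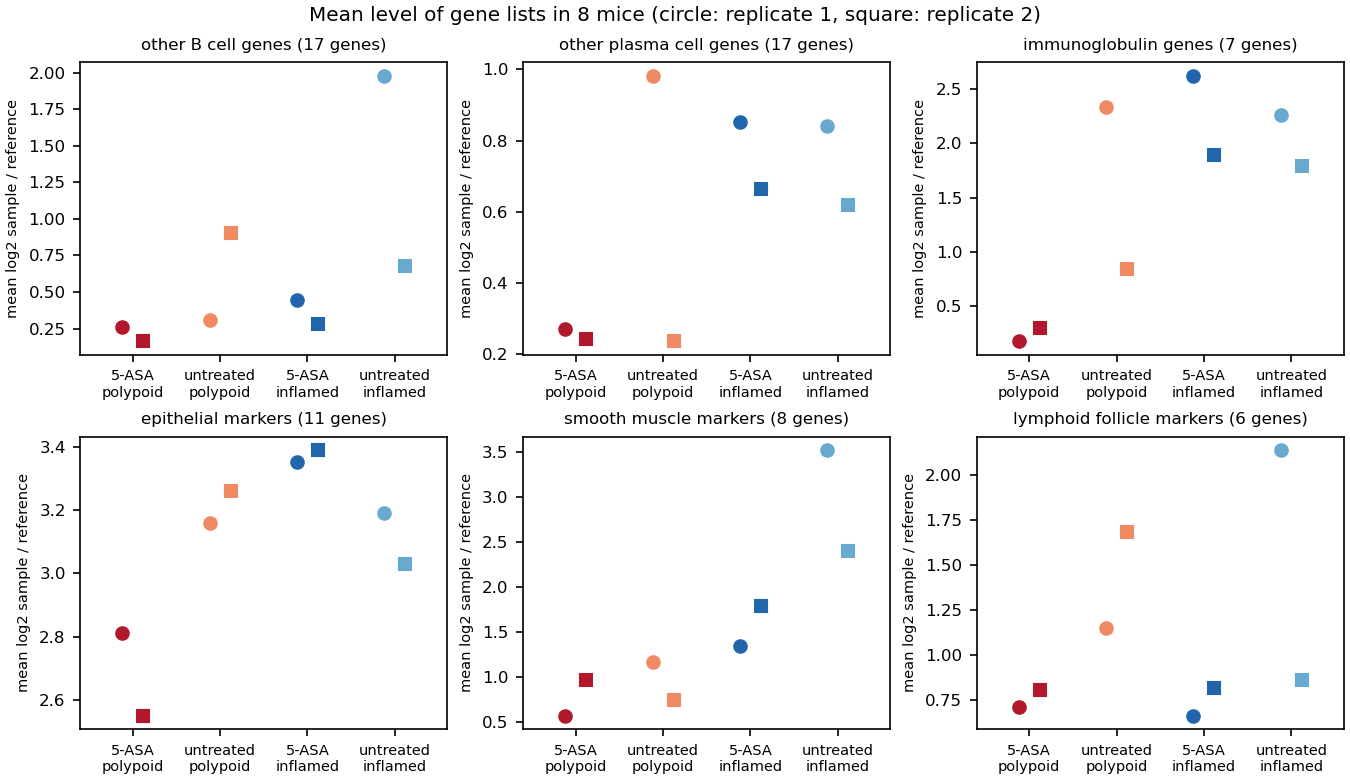
Mean level of 6 gene lists in each mouse as log2 of sample over reference RNA, by group; circles are replicate 1 and squares replicate 2. The immunoglobulin genes average 0.179 to 0.303 in 5-ASA polypoid tissue and 1.79 to 2.62 in inflamed tissue, and untreated inflamed replicate 1 is highest for other B cell genes (1.98), smooth muscle (3.52) and follicle markers (2.14).

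Of 12 genes for B cell signals and IgA transport, 2 fell in polypoid tissue, where 1.97% of all genes did, and 10 had lower means, with a median of -0.66. Tnfsf13, which encodes the plasma cell survival factor APRIL, had levels of 0.71 and 0.32 in 5-ASA polypoid tissue, 1.21 and 0.48 in untreated polypoid tissue, 1.89 and 1.68 in 5-ASA inflamed tissue and 1.94 and 1.90 in untreated inflamed tissue. The ranges of the tissues did not overlap, and the log2 difference was -1.17 ± 0.19 (limma adjusted p = 0.026). This call held without either untreated polypoid mouse and was lost without any of the other 6 (adjusted p = 0.063 to 0.12) and with session as a block (-1.48, limma adjusted p = 0.33). Aldh1a1, an enzyme that makes retinoic acid and is expressed by epithelium as well as by stromal and immune cells, fell by 2.45 ± 0.352 (limma adjusted p = 0.019), a call lost without any 1 of the 4 5-ASA mice (adjusted p = 0.054 to 0.097) and with session as a block (-3.53, limma adjusted p = 0.33). Ccl28, the epithelial chemokine that draws IgA plasma cells, differed by -0.85 ± 0.196 (adjusted p = 0.063).

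Of 20 genes of the unfolded protein response, the pathway in which XBP1 acts, none passed in the contrast between tissues, 14 had higher means in polypoid tissue and the median was 0.16. Sec61a1, a channel of the endoplasmic reticulum, differed by 0.55 ± 0.169 (limma adjusted p = 0.12), the chaperone gene Hyou1 by 0.73 ± 0.264 (adjusted p = 0.17) and Atf4 by 0.44 ± 0.177 (adjusted p = 0.21). With both arms combined this list leaned the other way from the plasma cell and immunoglobulin lists, and the difference between lists was not tested. Its median was 0.27 in untreated mice, with 14 higher and 6 lower, and -0.04 in 5-ASA mice, with 9 higher and 11 lower. The session 3 pair differed by -0.0638 for Sec61a1, -0.0958 for Hyou1 and 0.484 for Atf4.

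Patterns across the 8 mice were compared by Pearson correlation, as a description without a test, since the mice share groups and scan sessions. The mean of Ms4a1, Cd79a and Cd79b was followed most closely by Tnfrsf13c (r = 0.995), which encodes the BAFF receptor of B cells, then by Ccdc134 (0.978), the lymphoid chemokine Ccl19 (0.976), Ciita (0.975), the master regulator of MHC class II genes, and Rasal3 (0.969). Cd79a, with a range of 0.199, weighed little in this mean beside Ms4a1 (6.14) and Cd79b (5.17). The centred mean was highest in untreated inflamed replicate 1 (2.39), with untreated polypoid replicate 2 next (0.89). Tnfrsf13c levels were -0.50 and -0.72 in 5-ASA polypoid tissue, 0.42 and 1.88 in untreated polypoid tissue, 0.85 and 0.05 in 5-ASA inflamed tissue and 4.23 and 1.13 in untreated inflamed tissue. Its highest mouse was untreated inflamed replicate 1, a likeness that follows from its choice by correlation.

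The mean of Mzb1 and Jchain was followed closely by LOC628804 (r = 0.993), Pon3 (0.993), Klk1 (0.99) and Ccnk (0.987). Klk1 encodes tissue kallikrein, a serine protease that releases kinins. Its levels were 0.59 and 1.22 in 5-ASA polypoid tissue, 4.36 and 2.01 in untreated polypoid tissue, 4.70 and 4.02 in 5-ASA inflamed tissue and 5.16 and 3.99 in untreated inflamed tissue. Both 5-ASA polypoid mice were lowest and untreated polypoid replicate 1 lay among the inflamed mice. This likeness to Mzb1 and Jchain follows from the choice of Klk1 by correlation and is no separate observation.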

How the data were processed

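Colon areas were captured by laser and their RNA amplified in 2 rounds, then labelled and hybridised together with universal mouse reference RNA carrying a different dye, per the labels' protocols. The deposited scanner files hold spot intensity values per channel and a log10 ratio, made with Agilent Feature Extraction 9.1.1.1 per the file headers. The authors' deposited value table holds log2 values of sample over reference. Set against the log10 ratio of the scanner it had slopes of 3.03 to 3.18 (r of 0.996 or above), and medians of -0.012 to 0.031 per column. How its background and normalization were handled is not given in the sources used here, and it served as an alternative.

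Here, R 4.3.3 was used, with limma 3.58.1 and statmod 1.5.0. Spot signals were corrected by normexp (offset 50) and normalized by loess in each array, without 2256 control spots among 43790 and without flagged outliers. Dye-swapped arrays were turned the same way, and the 15 arrays were reduced to one value per mouse by a model with mouse and dye. The filter asked that a probe's sample signal be well above background throughout at least one group, and passed 30166 of 41174 probes. The brightest probe stood for each gene. Probe names came through RefSeq (GRCm38.p6) by accession for 22864 probes and by name or synonym for 10230, and 8080 kept the array name. The array files name no genome build, so probes are given no position.

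All 8 mice, 2 in each of 4 groups, entered one limma fit (4 residual degrees of freedom, prior 2.14) with 7 contrasts and Benjamini-Hochberg adjustment over 21301 genes at a threshold of 0.05. A value was missing in a mouse for 2 of these genes. Replicates were different mice, so p-values measure the spread between mice, with scan session mixed in. The scripts were tested on simulated data. The 9 genes and the lists were chosen with earlier results of these data known. Named were all 9 genes, list members past the threshold, the 3 of each list with the smallest p between tissues, and the 5 genes most like each pattern, of which 1 is not reported here. Immunoglobulin probes were taken by array name after values had been seen, leaving out Igll1 (surrogate light chain) and Ighmbp2 (no antibody chain). Alternatives changed the signal source, normalization, filter, probe choice, flags, dye, blocks or the mice included. The brightest unsaturated probe was added as an alternative after saturated Jchain arrays were seen.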

Additional observations from a re-analysis of the deposited data

Results flagged for a closer look

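In 2 cases 1 of 4 mice of a tissue lay far from the other 3 for Ms4a1, by Dixon's ratio of the gap to the whole range. By the less bright probe, untreated inflamed replicate 1 was high among inflamed mice (ratio 0.925, levels -0.01 to 3.75). By the brighter probe, untreated polypoid replicate 2 was high among polypoid mice (ratio 0.857, levels 0.03 to 3.58), while the other probe gave that mouse 0.69. Chance gives such a flag in about 5% of groups, and 11 probes were examined in both tissues.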

How the results depend on the processing

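With both arms combined, 2 of the 9 genes (Mzb1 and Sdc1) passed between tissues. Scanner-processed signals and the 15 arrays with mouse as a random block each gave 4. The authors' deposited value table gave 1, which was Jchain (-2.12, limma adjusted p = 0.025). Mzb1 (adjusted p = 0.092) and Sdc1 (0.057) were both lost there. No filter on dim probes and scan session as a block each gave 0. In 5-ASA mice, where 1 (Mzb1) passed, scanner-processed signals and the random block each gave 3, and Cy3 arrays alone gave 2. The deposited value table, no filter on dim probes and session as a block each gave 0 in 5-ASA mice. In untreated mice, where 0 passed, the random block gave 1. Leaving out 1 mouse gave 0 to 3 calls with both arms combined and 0 to 2 in 5-ASA mice. No setting called any of the 9 for 5-ASA or for its difference between tissues. Over all genes the settings gave 0 to 3360 calls between tissues (1265 as reported), 0 to 1022 in untreated mice (35 as reported) and 0 to 2644 in 5-ASA mice (651 as reported). For 5-ASA they gave 0 to 88 in polypoid tissue, 0 to 2 in inflamed tissue, 0 to 8 over both and 0 to 2 for the difference. Session as a block left 1 residual degree of freedom. The random block left 10, against 4 in the main fit, because dye-swapped arrays of the same mouse entered it separately.

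Some signs turned, and the cause was not tested. With scanner-processed signals, the tissue difference was -0.0441 for Xbp1 and, in untreated mice, -0.0549 for Cd79a, which had -0.0625 in the deposited value table. With Cy3 arrays alone, Cd79a had -0.0236 in untreated mice, Sdc1 0.0239 under 5-ASA in polypoid tissue, and Jchain 0.16 for the difference of 5-ASA effects. With session as a block, the tissue difference was 2.12 for Ms4a1, 0.347 for Cd79b, 0.0369 for Fcrla and 0.791 for Fcrl1. In untreated mice it was then 0.61 for Ms4a1, -0.0277 for Cd79a, 0.609 for Cd79b and 0.287 for Irf4, and in 5-ASA mice 3.62 for Ms4a1 and 0.0855 for Cd79b. The unsaturated Jchain probe gave 0.15 under 5-ASA in inflamed tissue.

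Leaving out 1 mouse at a time also turned signs. Between tissues with both arms combined, Xbp1 ranged over -0.135 to 0.171. Under 5-ASA in polypoid tissue, Sdc1 ranged over -0.545 to 0.351. Between tissues in untreated mice, Irf4 ranged over -0.863 to 0.515, Mzb1 over -1.3 to 0.00502, Cd79a over -0.0125 to 0.039 and Cd79b over -2.37 to 0.645. Between tissues in 5-ASA mice, Ms4a1 ranged over -0.817 to 0.317. Under 5-ASA in inflamed tissue, Irf4 ranged over -0.389 to 0.989, Cd79b over -2.68 to 0.337, Pou2af1 over -1.53 to 0.305 and Jchain over -0.757 to 0.204. Under 5-ASA over both tissues, Irf4 ranged over -0.605 to 0.0834. For the difference of 5-ASA effects, Ms4a1 ranged over -0.0791 to 3.58, Cd79b over -2.92 to 0.0927 and Pou2af1 over -1.79 to 0.0395.

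The labels number the replicates alike in each group. Deviations of same-numbered mice correlated at 0.0343 to 0.363 over 6 pairs of groups. All were positive, but those of 5-ASA polypoid with untreated polypoid tissue (0.0343) and with 5-ASA inflamed tissue (0.0767) were near 0, so the numbers were not taken to pair the mice. Replicates 1 were scanned in sessions 1 and 2, and replicates 2 in sessions 3 and 4. With the replicate block, 4 of the 9 genes passed between tissues with both arms combined: Pou2af1 (limma adjusted p = 0.035) and Jchain (0.044) beside Mzb1 (0.019) and Sdc1 (0.049). Of the list genes named, Igh-VJ558 (0.019), Ccl28 (0.022) and Ighm (0.027) passed as well. Over all genes the block gave 1788 calls with both arms combined, 17 in untreated mice and 1088 in 5-ASA mice. With 2 mice in each group, the number of mice and the signal over background of dim probes (Irf4, Cd79a) limit what these arrays can resolve.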
